A study of Mus musculus with 6 samples.

Results

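The miR-34 family was followed in hearts with a knockout of Elac2, which encodes an RNase Z, as the 3 mouse genes Mir34a, Mir34b and Mir34c. They were taken by gene name from a table of 30638 small RNA features, of which 2207 are annotated as miRNA genes. Libraries of inserts between 15 and 100 nt were made from RNA of crude hearts on a C57BL/6 background, 6 libraries in all. The 3 control samples are titled L/L: an Elac2 exon lies between loxP sites on their alleles and no cre is named, although their genotype label reads Elac2 +/+. The 3 knockout samples are titled L/L, cre, with the genotype label Elac2 -/-. In them the floxed exon is removed by a cre driven by the muscle creatine kinase promoter, which is active in striated muscle cells, so other cell types of the heart can keep the gene. The labels state no ages. Each library carries its own identifier, but nothing in the labels says in words that the replicates are separate mice, so p-values measure the spread between these samples, which may be in part technical.

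A miRNA gene is transcribed as a long primary RNA, from which Drosha cuts a hairpin and Dicer cuts a short duplex. The strand that is loaded into Argonaute recognises target mRNAs mainly through bases 2 to 8, its seed. The miR-34 genes are direct transcriptional targets of p53, and their products lower the levels of cell cycle and survival proteins. In the heart, miR-34a is known to rise with age and after injury, whereas Mir34b and Mir34c share a primary transcript best known from testis and from multiciliated epithelium. RNase Z, the product of Elac2, trims the 3′ ends of precursor tRNAs and is not a step of the usual miRNA pathway.

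The members and their relatives are shown by sequence first, because the counts are given per gene and the grouping of the family rests on the seed. All 3 genes had a hairpin in the RefSeq table (GRCm38.p6), which held 1005 hairpins and 1738 mature miRNAs, 5 of them from the members. In the 5p arms below, capitals mark bases 2 to 8, which are the same in all 4 mature miRNAs of the table that carry this seed, those of Mir34a, Mir34b, Mir449a and Mir449c. The 5p arm of Mir34c, miR-34c-5p, had no entry in the table and is named only, and the hairpin of Mir34c holds the same 7 letters.
mmu-miR-34a-5p: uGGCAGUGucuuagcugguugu
mmu-miR-34b-5p: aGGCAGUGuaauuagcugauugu
mmu-miR-449a-5p: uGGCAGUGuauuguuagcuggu
mmu-miR-449c-5p: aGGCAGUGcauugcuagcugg
The 3p arms, with bases 2 to 8 in capitals, separate Mir34a from the other members, since Mir34b and Mir34c share theirs and that of Mir34a was in no other entry of the table.
mmu-miR-34a-3p: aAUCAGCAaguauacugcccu
mmu-miR-34b-3p: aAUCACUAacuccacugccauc
mmu-miR-34c-3p: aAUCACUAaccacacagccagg
In the hairpins, the counted units, capitals mark the same 7 letters, which occur at 1 place in each member.
Mir34a: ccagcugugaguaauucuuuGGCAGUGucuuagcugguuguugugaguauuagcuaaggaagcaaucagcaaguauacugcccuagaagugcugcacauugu
Mir34b: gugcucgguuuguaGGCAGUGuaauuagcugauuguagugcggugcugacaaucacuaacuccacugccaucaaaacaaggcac
Mir34c: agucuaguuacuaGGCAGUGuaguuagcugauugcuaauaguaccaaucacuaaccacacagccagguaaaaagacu

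The genes sit at 2 places in the genome (GRCm38). Mir34a (ENSMUSG00000065493.1, 102 nt) lies on the plus strand of chromosome 4, at positions 150068454 to 150068555. Its last 17 bases overlap an exon of Gm37795, an unclassified transcript on the same strand that had 0 counts in every library, and neither mature arm reaches into that overlap. Mir34b (ENSMUSG00000065492.1, 84 nt) lies on the minus strand of chromosome 9, at 51103562 to 51103645. Mir34c (ENSMUSG00000065587.1, 77 nt) follows it on that strand after a gap of 451 bases, at 51103034 to 51103110. Both lie within an intron of Btg4, which is annotated on the opposite strand. The longest run of letters shared by Mir34b and Mir34c is 11 nt, and the longest that Mir34a shares with either is 8 nt. No other hairpin of the table shared an exact run of more than 11 nt with a member, which is shorter than the shortest insert of 15 nt. Exact runs do not cover alignments with a mismatch. In the hairpins above, Mir34b and Mir34c stay alike around the seed on both sides of a single differing base. Whether reads of Mir34b and Mir34c were assigned to each other was not tested. The tables count reads per gene, so the arms of a hairpin cannot be told apart.

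Library totals ranged from 13510061 to 16248673 counts, and 1144 features passed the filter on low counts, 312 of them miRNA genes. All 3 members passed, and each had at least 10 counts in every library, in control and knockout alike. The choice of library scaling moves every value. Against the TMM scaling used here, the median shift in log2 fold change over all features was -0.34 with total counts alone. It was -0.18 with factors from miRNA genes, -0.84 with snoRNA and scaRNA factors and 0.55 with snRNA and rRNA factors. Over the features shared with the main fit, it was 0.36 without a filter and 0.19 with a minimum count of 5. Leaving out knockout replicate 1, 2 or 3 gave median shifts of 0.21, 0.24 and 0.22, and leaving out a control replicate gave -0.02 to 0.02. The cardiomyocyte miRNA genes Mir1a-1, Mir1a-2, Mir133a-1, Mir133a-2, Mir208a, Mir208b and Mir499 were all measured, with a summed level of 117837 to 148037 CPM (TMM-scaled counts per 1e+06 counts) in control and 72669 to 93284 CPM in knockout libraries. Most of this sum was Mir1a-1 and Mir1a-2. Elac2 mRNA was not analysed here.

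Of the 3 members, Mir34a changed most. It rose 4.39-fold in knockout hearts, Mir34c rose 1.57-fold under the main scaling but had a negative estimate with snoRNA and scaRNA factors, and Mir34b, whose estimate was 1.69-fold, did not pass the test. By edgeR's quasi-likelihood test, 2 of the 3 members were therefore called higher and 0 lower. Of all 1144 features, 50.2% were called, 23.2% higher and 27.0% lower, and of the 312 miRNA genes 23.4% were called, 17.0% higher and 6.41% lower. The groups did not overlap for any of the 3 members, which also held for 63.0% of all features and 41.7% of the miRNA genes. Knockout was the higher group in all 3, as in 29.4% of all features and 28.8% of the miRNA genes. With counts from whole tissue, a change in the number of cells that make a miRNA and a change in its level per cell cannot be told apart.

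Mir34a, the member most often linked to p53 and to the ageing heart, had 84, 241 and 134 counts in the control hearts, in the order of replicates 1 to 3 used throughout. The knockout hearts gave 365, 562 and 598 counts. After scaling these were 5.46, 13.6 and 7.32 CPM in control and 26.5, 44.5 and 45.0 CPM in knockout libraries. Control replicate 2 was the highest control and knockout replicate 1 the lowest knockout library, and these were still apart. The mean went from 8.79 ± 4.25 CPM (SD, n = 3) to 38.7 ± 10.5 CPM (SD, n = 3). The log2 fold change was 2.13 (SE 0.34, 95% interval 1.38 to 2.89), with an edgeR p of 0.000307 after Benjamini-Hochberg adjustment over all 1144 features. In the authors' deposited table the log2 fold change of Mir34a is 2.18 with an adjusted p of 9.02e-10. The rise was called under all 15 alternatives, and its size depended on the scaling, with a log2 fold change of 1.31 with snoRNA and scaRNA factors and 2.75 with snRNA and rRNA factors.

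Mir34c, the more abundant gene of the chromosome 9 pair, had 115, 164 and 151 counts in control and 161, 166 and 190 counts in knockout hearts. The scaled levels were 7.48, 9.24 and 8.25 CPM in control and 11.7, 13.1 and 14.3 CPM in knockout libraries. Every knockout library lay above every control library after scaling, while the raw counts overlapped. The mean went from 8.32 ± 0.883 to 13.0 ± 1.30 CPM (SD, n = 3). Its log2 fold change of 0.65 (SE 0.21, 95% interval 0.19 to 1.11; edgeR adjusted p = 0.0231) became -0.20 with snoRNA and scaRNA factors (adjusted p = 0.408). The call was also lost with total counts alone, with factors from miRNA genes and with replicate number as a block (edgeR adjusted p = 0.0635). Without control replicate 3 it was lost as well (log2 fold change 0.61, edgeR adjusted p = 0.0859). In the authors' deposited table Mir34c has a log2 fold change of 0.69 and an adjusted p of 0.0216.

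Mir34b, which is cut from the same primary transcript, was the rarest member, with 24, 19 and 33 counts in control and 34, 37 and 28 counts in knockout hearts. These were 1.56, 1.07 and 1.80 CPM in control and 2.47, 2.93 and 2.11 CPM in knockout libraries. The nearest libraries were control replicate 3 and knockout replicate 3. Their exact 95% Poisson intervals, scaled to CPM, were 1.24 to 2.53 and 1.40 to 3.05 CPM, which overlap and cover counting error only. The mean was 1.48 ± 0.373 CPM in control and 2.50 ± 0.411 CPM in knockout hearts (SD, n = 3). The log2 fold change was 0.75 (SE 0.30, 95% interval 0.09 to 1.41, not adjusted for the number of features), with an adjusted p of 0.0554 by edgeR. It was called with snRNA and rRNA factors, with a lower or no filter, and without control replicate 1, knockout replicate 1 or knockout replicate 3. All of these but leaving out control replicate 1 had a median upward shift in log2 fold change over features of 0.19 to 0.55. The log2 fold change of Mir34b turned to -0.093 with snoRNA and scaRNA factors. In the authors' deposited table it is 0.80 with an adjusted p of 0.148.

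**Figure D1:**
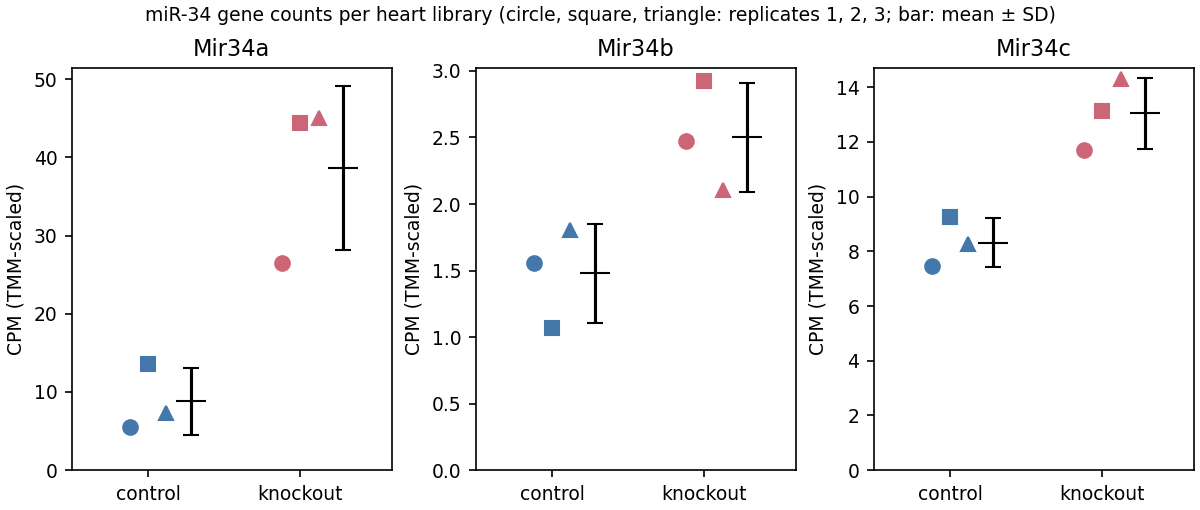
TMM-scaled counts per 1e+06 counts (CPM, linear axes from 0) of Mir34a, Mir34b and Mir34c in each control and knockout heart library, with replicates 1, 2 and 3 as circle, square and triangle and the mean ± SD beside them. The knockout libraries of Mir34a sit between 26.5 and 45.0 CPM and the control libraries between 5.46 and 13.6 CPM, while Mir34b and Mir34c are separated by smaller gaps.

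Per length of hairpin, Mir34a and Mir34c overlapped in control libraries and were apart in knockout libraries. In control libraries Mir34c stood at 97.1 to 120 CPM per kb and Mir34a at 53.5 to 133 CPM per kb, ranges that overlap, with Mir34b below both at 12.7 to 21.5 CPM per kb. The order of the control means depended on the division by length. They were 86.1 CPM per kb for Mir34a and 108 for Mir34c, against 8.79 and 8.32 CPM per gene. The listed mature arms of the members are 21 to 23 nt long, so counts need not grow with hairpin length. In knockout libraries Mir34a led with 260 to 441 CPM per kb, ahead of Mir34c with 152 to 186 and Mir34b with 25.1 to 34.8 CPM per kb, and no ranges overlapped. By CPM per gene, Mir34a moved from rank 169 of the 312 tested miRNA genes in control to rank 119 in knockout hearts, Mir34c from 170 to 163 and Mir34b from 247 to 228.

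Ratios within a library need no library scaling, and the ratio of Mir34a to Mir34c did not overlap between the groups. Mir34a had 0.730, 1.47 and 0.887 counts per count of Mir34c in the control hearts, against 2.27, 3.39 and 3.15 in the knockout hearts. The log2 ratio rose by 1.55, from -0.02 ± 0.52 to 1.53 ± 0.31 (SD, n = 3), with 3 of 3 knockout libraries above every control library and p = 0.1 in an exact two-sided permutation test, the smallest p that 3 against 3 allow (0.15 adjusted over the 3 ratios tested). With each library left out in turn the difference was between 1.34 and 1.84. Against Mir34b, a ratio added after the others were seen and not tested, Mir34a had 3.50, 12.7 and 4.06 counts per count in control and 10.7, 15.2 and 21.4 in knockout hearts. Here the groups overlapped, with control replicate 2 above knockout replicate 1. Mir34b against Mir34c had 0.209, 0.116 and 0.219 counts per count in control and 0.211, 0.223 and 0.147 in knockout hearts, and the groups overlapped (difference in log2 ratio 0.12, exact two-sided permutation p = 0.6, 0.6 adjusted). This p does not show that they moved alike.

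Against all other miRNA counts of the same library, Mir34a was also higher in each knockout library. It made up 14.3, 35.3 and 21.3 counts per 1e+06 miRNA counts in control and 86.3, 116 and 120 in knockout hearts. The log2 ratio differed by 2.26 (exact two-sided permutation p = 0.1, n = 3 per group, 0.15 adjusted). On the same basis Mir34c had 19.6, 24.0 and 24.0 in control and 38.0, 34.4 and 38.2 in knockout hearts, and Mir34b 4.09, 2.79 and 5.24 against 8.03, 7.67 and 5.62. Both also sat higher in each knockout library than in any control library, by smaller margins than Mir34a. The miRNA counts themselves were lower in knockout libraries, at 4231749 to 4980125 against 5860912 to 6822014 in control libraries. This lower denominator enters all of these values.

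**Figure D2:**
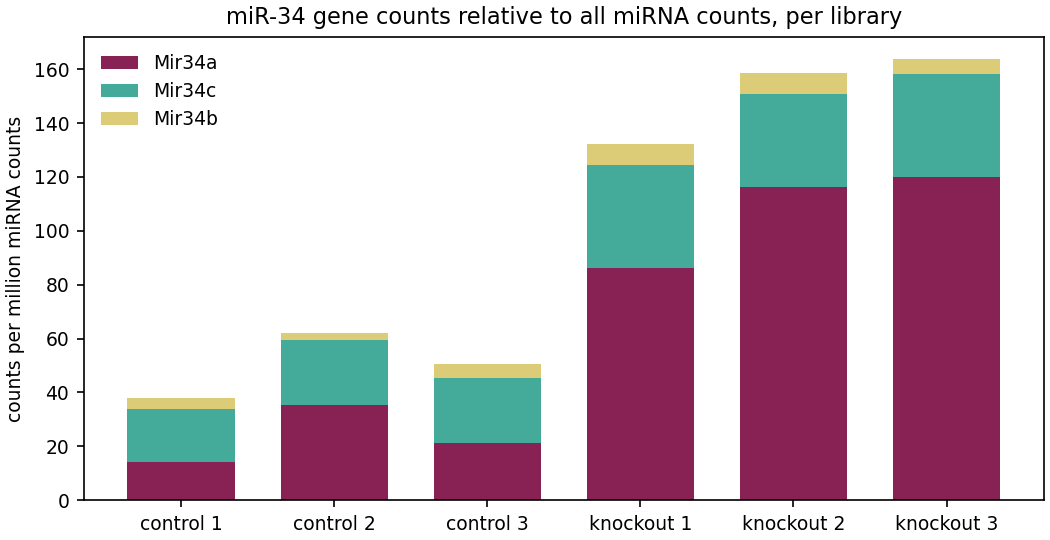
Counts per 1e+06 miRNA counts of the same library for Mir34a, Mir34c and Mir34b (stacked bars, linear axis from 0) in 3 control and 3 knockout hearts. Mir34a fills 14.3 to 35.3 of each control bar and 86.3 to 120 of each knockout bar, and the other segments change less.

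In these counts, the family sharing the GGCAGUG seed was in effect made of the 3 members. The miR-449 genes, which lie in a cluster on another chromosome and are known from multiciliated cells, had few counts. Mir449a had 1 to 3 counts per library, and Mir449c had 3 counts in knockout replicate 1 and 0 elsewhere. Mir449b had 0 in every library, where 3 counts would correspond to 0.164 to 0.237 CPM. Over the miR-34 and miR-449 genes together, the summed level was 14.6, 24.1 and 17.4 CPM in control and 41.1, 60.6 and 61.5 CPM in knockout hearts. The share of these counts from Mir34a was 37.3%, 56.4% and 42.0% in control and 64.5%, 73.4% and 73.2% in knockout hearts. Control replicate 2 (95% Clopper-Pearson interval 51.6% to 61.2%) and knockout replicate 1 (60.4% to 68.4%) were the nearest, and their intervals, which cover counting error only, overlap.

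Among the 312 tested miRNA genes, whose median log2 fold change was 0.21, Mir34a ranked 7th from the highest change, Mir34b 37th and Mir34c 48th. The 6 miRNA genes above it were all called, and the 5 with the largest changes were Mir216b, Mir217, Mir708, Mir1983 and Mir7688. Mir708, for example, went from 8.04 ± 3.46 to 139 ± 36.8 CPM (SD, n = 3). The genes whose log2 CPM over the 6 libraries was most like that of Mir34a were Mir34c (Pearson r = 0.992), Mir148b (r = 0.991) and Mir362 (r = 0.988), out of 311 compared. Those most like Mir34c were Mir34a, Mir186 (r = 0.988) and Mir148b (r = 0.984), and those most like Mir34b were Mir431 (r = 0.965), Mir127 (r = 0.943) and Mir877 (r = 0.921). Both groups enter these coefficients, as do the shared libraries and their scaling, and they serve only to describe the 6 libraries. Mir34a and Mir34c had the same order of libraries, yet log2 fold changes of 2.13 and 0.65.

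**Figure D3:**
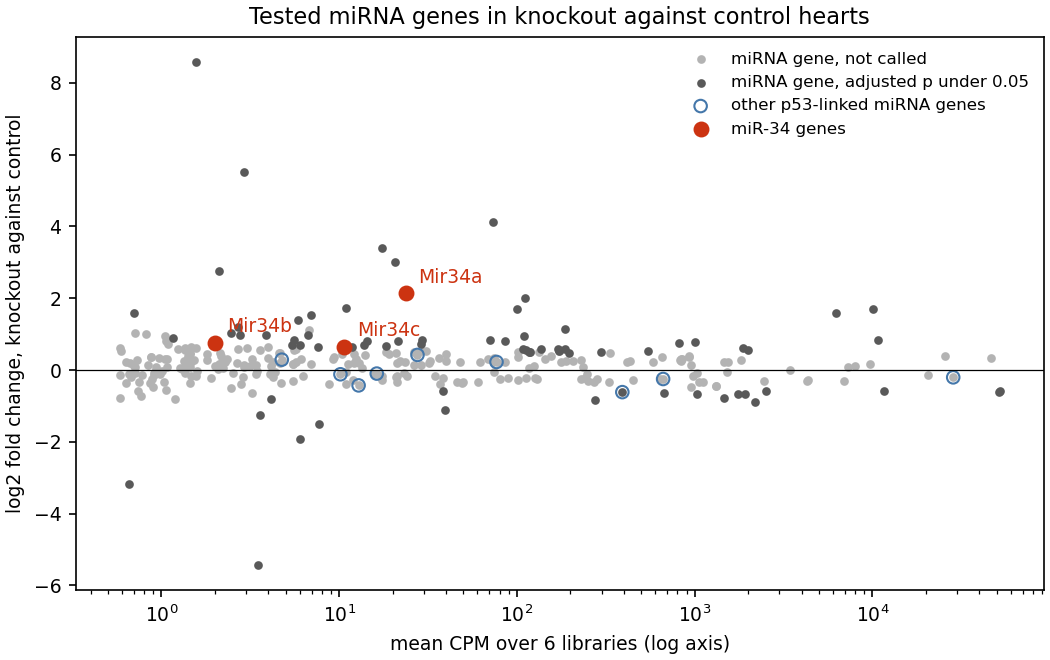
Log2 fold change of each of the 312 tested miRNA genes (knockout against control) against its mean CPM over the 6 libraries on a log axis, with the miR-34 genes in red, the other p53-linked miRNA genes circled in blue and genes with an adjusted p under 0.05 in dark grey. Mir34a stands at 2.13 with 6 genes above it, and the circled genes lie between -0.62 (Mir192) and 0.42 (Mir107).

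Other miRNA genes tied to p53 were read from a list. It held genes transcribed under p53 (Mir192, Mir194-1, Mir194-2, Mir215, Mir107, Mir200c and Mir141) and genes whose processing p53 is reported to promote (Mir143, Mir145a, Mir16-1 and its neighbour Mir15a). Of its 11 genes, 9 could be tested. Of these 0 were called higher and 1 lower, where 17.0% of all tested miRNA genes were called higher and 6.41% lower. Their median log2 fold change was -0.12 beside -0.01 for all features and 0.21 for all tested miRNA genes. Mir192 had 505, 454 and 463 CPM in control and 259, 332 and 337 CPM in knockout hearts, and the groups did not overlap. Its log2 fold change was -0.62 (SE 0.17, edgeR adjusted p = 0.0112). It was negative in all 15 alternatives and called in 9 of them. The call was lost without knockout replicate 1, 2 or 3, with snRNA and rRNA factors, and with a lower or no filter. In each of these settings the median shift in log2 fold change over features was upward, by 0.19 to 0.55. Mir107 had 18.0 to 31.3 CPM in control and 26.2 to 35.2 CPM in knockout libraries. Its estimate was the highest of the list (log2 fold change 0.42, edgeR adjusted p = 0.172), and it was called higher in 5 of 15 alternatives and lower in 0. Mir215 had 0 counts in every library, and Mir141 had 1 count in control replicates 1 and 3 and 0 elsewhere. The count of the list depended on the scaling, with 0 higher and 7 lower with snoRNA and scaRNA factors and 2 higher and 0 lower with snRNA and rRNA factors, while Mir34a was called higher in both. Without control replicate 2, 2 were called higher and 1 lower, and without knockout replicate 1, 1 higher and 0 lower.

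Fragments of p53-linked lncRNAs had low counts, and those of Tug1 were lower in knockout hearts. Of Trp53cor1, Neat1, Tug1, Pvt1 and Meg3, 2 could be tested, of which 0 were called higher and 1 lower. Tug1, a lncRNA that p53 is known to induce, had 21, 68 and 58 counts in control and 2, 5 and 5 counts in knockout hearts (log2 fold change -3.18, SE 0.51, edgeR adjusted p = 0.000296), and it was called lower in all 15 alternatives. Neat1 had 3.64 to 6.65 CPM in control and 3.99 to 5.30 CPM in knockout libraries and was not called (log2 fold change -0.18, adjusted p = 0.593). Trp53cor1, Pvt1 and Meg3 had at most 2 counts in a library. Reads of 15 to 100 nt from a long RNA are fragments, and fewer of them do not measure less of the whole transcript. Levels of Trp53 and of its mRNA targets were not analysed here.

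Markers of other cell types were read beside these results. A gene at 0 need not mean an absent miRNA, because the handling of reads with several alignments is not stated. Such reads may have been counted under another gene or not at all. Of 9 epithelial miRNA genes, including the miR-449 and miR-200 genes, 3 were at 0 in every library (Mir449b, Mir429 and Mir205). Another 3 were tested and 0 were called. With total counts alone 2 of these 3 were called lower, and with snoRNA and scaRNA factors all 3 were. The summed epithelial level was 21.2 to 31.5 CPM in control and 17.7 to 25.6 CPM in knockout libraries, ranges that overlap. The blood and immune genes summed to 629 to 1341 CPM in control and 1037 to 1618 CPM in knockout libraries. Mir223 and Mir155 were at 0, and most of the sum was Mir451a, which was not called. Of 4 tested, 1 was called higher (Mir144) and 1 lower (Mir150). Across the 15 alternatives, Mir144 was called higher in 11 and Mir150 lower in 6. With snRNA and rRNA factors 3 of the 4 were called higher and 0 lower, and with total counts alone 0 higher and 1 lower. The smooth muscle and fibroblast genes summed to 27309 to 34271 CPM against 23383 to 31268 CPM, with Mir199a-2 and Mir214 at 0, and of 3 tested 1 was called higher and 0 lower. Most of this sum was Mir143, and the gene called was Mir199a-1, known from fibroblasts, with 698, 878 and 637 CPM in control and 1310, 1286 and 1233 CPM in knockout hearts. The groups of Mir199a-1 did not overlap, and its log2 fold change of 0.79 (edgeR adjusted p = 0.00183) was called in 14 of 15 alternatives and was -0.049 with snoRNA and scaRNA factors. The endothelial gene Mir126a had 19531 to 23763 CPM against 17620 to 20972 CPM and was not called. Of the 15 alternatives, 3 called it lower and 0 higher. The summed cardiomyocyte level was lower in each knockout library than in any control library. Of 7 genes, 2 were called lower (Mir1a-1 and Mir1a-2), Mir208b was called higher and 4 were not called. Most of the sum was Mir1a-1 and Mir1a-2, with means of 62248 and 62354 CPM in control and 41794 and 40728 CPM in knockout hearts. Their counts were close to each other in every library, so the 2 lower calls may not be separate. Both lower calls were lost with snRNA and rRNA factors, without a filter and without knockout replicate 1, 2 or 3. In each of these settings the median shift in log2 fold change over features was upward, by 0.21 to 0.55. The call of Mir208b was lost with total counts, miRNA, and snoRNA and scaRNA factors and without control replicate 2 or 3. The part of these cell type markers in the change of Mir34a was not tested.

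**Figure D4:**
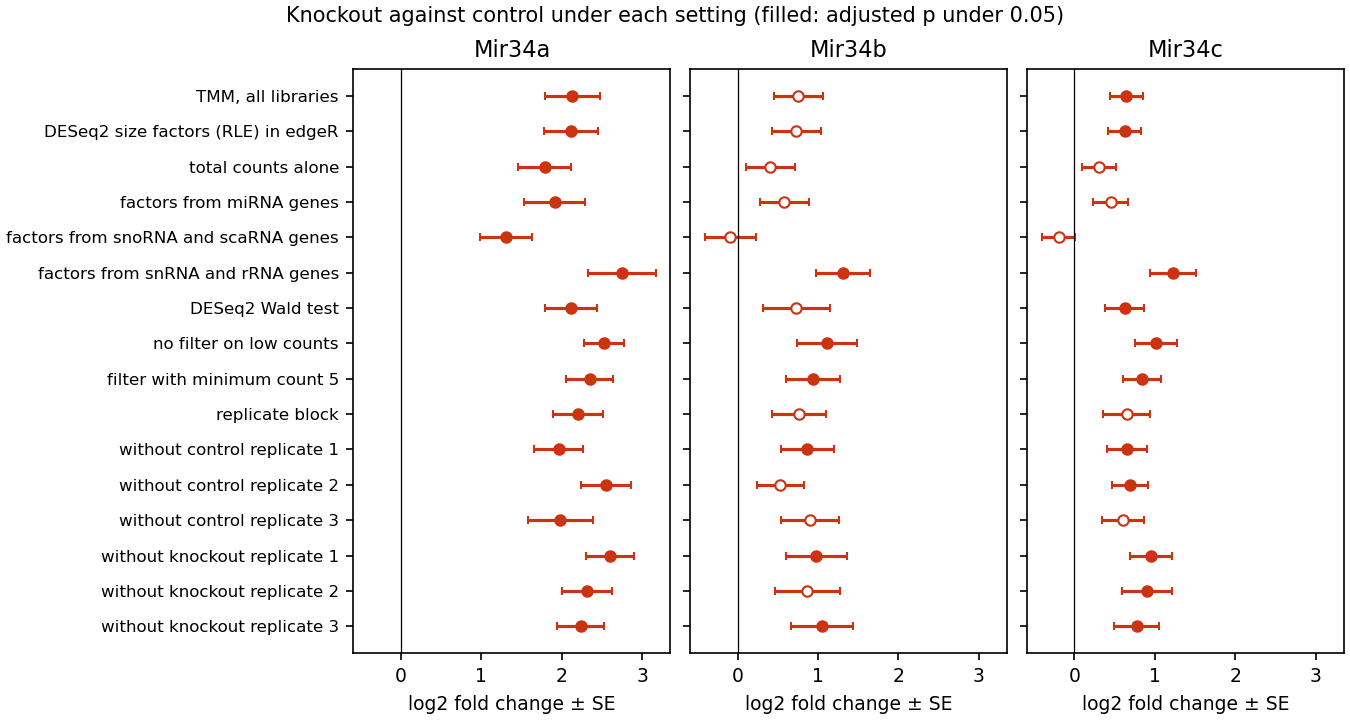
Log2 fold change ± SE (knockout against control) of Mir34a, Mir34b and Mir34c under the main setting and 15 alternatives, with filled points where the adjusted p was under 0.05. All points of Mir34a are filled and lie between 1.31 and 2.75, while those of Mir34b and Mir34c fall on both sides of 0 and of the threshold.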

How the data were processed

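Small RNA was measured in 3 control and 3 knockout heart samples, grouped by sample title, with 1 count column per sample. The authors deposited raw counts per feature, together with their own test results as log2 fold changes and adjusted p-values, per the file headers. The submitters' processing notes name build mm10 and the tools featureCounts 1.5.1, Bowtie2 2.2.9, DESeq2 1.16.1 and cutadapt 1.14, without saying what each did. The annotation, the strand setting, the handling of reads with several alignments and the merging of technical replicates are not stated there. The deposited normalized counts were not used, and there were 0 columns of other samples.

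Features were kept by filterByExpr (minimum count 10, minimum total 15) and scaled by TMM (factors 0.828 to 1.15). Kept features held at least 99.89% of each library. The contrast of knockout with control was fitted in edgeR 4.0.16 in R 4.3.3 (glmQLFit and glmQLFTest, no covariate, Benjamini-Hochberg adjusted p under 0.05, biological coefficient of variation 0.217). The SE is the log2 fold change divided by the root of the F statistic. Log2 CPM for the likeness of genes used a prior count of 2, and ratios of counts added 0.5 to each. On simulated counts for 1144 features, the fit called 68.1% of changes of 1 and 100% of changes of 2 on the log2 scale. The simulation had as many rises as falls, a common dispersion and no shift of scaling between the groups. It therefore does not test the choice of scaling. Alternatives were 5 other scalings, DESeq2 1.42.0, a lower filter and none, a replicate block and leaving out each library. Libraries were distinct (lowest chi-square per degree of freedom 93.2). Positions and neighbours came from GENCODE M21 (GRCm38) and sequences from RefSeq. Tables used Python 3.11.15, pandas 2.3.3 and SciPy 1.17.1, and figures matplotlib 3.10.9.

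Named genes were the members, genes sharing their 5p seed, the listed p53-linked and cell type genes, the 3 miRNA genes most like each member by Pearson r, and up to 5 miRNA genes changed more than Mir34a. The members and lists were chosen with earlier results of these data known.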

Additional observations from a re-analysis of the deposited data

How the results depend on the processing

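Mir34a was called higher under all 15 alternatives, with log2 fold changes from 1.31 to 2.75 and adjusted p from 1.37e-21 to 0.00379. For Mir34c (0.65 in the main analysis) the call was lost with total counts alone (0.30) and with factors from miRNA genes (0.45). It was also lost with the replicate block (0.65, edgeR adjusted p = 0.0635) and without control replicate 3 (0.61, edgeR adjusted p = 0.0859). The sign of Mir34c turned with snoRNA and scaRNA factors (-0.20), and values without each library in turn ran from 0.61 to 0.95. For Mir34b (0.75) the sign turned with snoRNA and scaRNA factors (-0.093). The call of Mir34b was gained with snRNA and rRNA factors (1.30), without a filter (1.11) and with a minimum count of 5 (0.93). Its values without each library ran from 0.53 to 1.05, and the call was gained without control replicate 1, knockout replicate 1 or knockout replicate 3. The features called, 574 in all, became 1141 of 9254 tested without a filter, 908 without control replicate 1, and 486 to 908 over the libraries left out, where the number tested also changed. The share of higher calls was 46.2%, and 28.2%, 34.8%, 13.3% and 64.6% with total counts, miRNA, snoRNA and scaRNA, and snRNA and rRNA factors. The ratios of Mir34a to Mir34c and to all other miRNA counts kept their direction without each library (1.34 to 1.84 and 1.95 to 2.60) and with 1 added to both counts, whereas that of Mir34b to Mir34c ran from -0.17 to 0.31. Deviations from the group means correlated at -0.13, -0.02 and -0.19 for same-numbered libraries. For differently numbered libraries the correlations ran from -0.05 to 0.17. The replicate block gave 536 calls. Deviations within a group of 3 sum to 0, so these values cannot settle whether replicate numbers pair the samples. Where a call changed, the cause was not tested. With 19 to 37 counts per library, depth limits what can be said of Mir34b, and 3 samples per group allow no exact p under 0.1.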
